A study of Schizosaccharomyces pombe with 40 samples.

Results

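The 48 genes described here are fission yeast genes with no gene name, known on the array only by a systematic id, whose transcripts rose during hydroxyurea treatment. They were picked by their values: a gene entered if its mean log2 ratio at 120 min was at least 0.5 above its mean at 0 min in each of the strains Cdelta21, Cdelta53 and 2C/S-H/Y, after its 2 probes were averaged. Of 754 unnamed genes among the 4816 genes with a symbol of their own, 48 met the rule (6.37%), as did 89 named genes (2.19% of the named genes). The rise from 0 to 120 min in those 3 strains is therefore a description and carries no test. Tests compared only means of arrays that the rule did not use, although their spread was estimated from all 40 arrays. The arrays compared were those of a further strain, Cdelta94, and those taken at 10, 30 and 60 min. In the picking strains these times lie within the courses that the rule used, so a rise among them is favoured by the picking.

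A systematic id in Schizosaccharomyces pombe records where the open reading frame lies: ids starting with SPAC or SPAP belong to chromosome I, SPBC or SPBP to chromosome II and SPCC to chromosome III, and a final C marks the complementary strand. Such a gene has been located by sequencing but had not been given a name in the annotation used here. Hydroxyurea inhibits ribonucleotide reductase, so that replication forks stall for lack of deoxynucleotides. Fission yeast cells under stress also switch on a shared set of protective genes, the core environmental stress response. Rep2 is a co-activator of MBF, the transcription factor complex that drives the genes of the G1 to S transition.

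Total RNA was measured on 40 two-colour arrays, 2 for each of 20 groups. All strains carried altered rep2: Cdelta21, Cdelta53 and Cdelta94 (written C delta21 and so on in the labels) are truncations and 2C/S-H/Y carries a site mutation, per the growth protocol. Every strain was grown in YES medium to mid log phase at one temperature, treated with 8 mM hydroxyurea, and sampled at 0, 10, 30, 60 and 120 min. Strain RNA carried Cy5 and pooled wild-type mid-log RNA carried Cy3 on every array, without a dye swap. Wild-type cells in hydroxyurea were not among the arrays, so no level or change below can be set against wild-type cells under the drug. A ratio is read as strain over wild-type reference, a direction that the deposited values do not state. The sample descriptions name a different mutant on all arrays, so the strain names rest on the titles. Whether the paired arrays of a group stem from different cultures is not stated. The p-values therefore cover a spread between arrays that may be technical, and strain cannot be told apart from any batch that followed it.

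Both probes of rep2 were near the bottom of the scale in Cdelta94, with means of −5.19 ± 0.24 and −5.09 ± 0.44 (SD, n = 10 arrays). In Cdelta21, also a truncation, they were much nearer to the reference, at −0.70 ± 0.14 and −0.90 ± 0.23. In Cdelta53 the second probe was at −4.68 ± 0.34 and the first at −1.36 ± 0.23, while in 2C/S-H/Y they were at −0.10 ± 0.27 and 0.63 ± 0.24. Several arrays stood apart. All 5 replicate pairs of Cdelta53, and array 1 of 2C/S-H/Y at 30 min with array 1 at 60 min, were near repeats of each other: the SD of their difference over probes was 0.07 to 0.10, against 0.17 to 0.44 in the other 15 replicate pairs. In 2C/S-H/Y the means at 0 and 10 min correlated at 0.59 across the 5004 features tested, against 0.83, 0.90 and 0.95 in Cdelta21, Cdelta53 and Cdelta94. Whether this lay in the 0 min arrays, in the 10 min arrays or in a change of the cells by 10 min was not tested. Changes from 0 min in that strain are to be read with this in mind. In Cdelta94 the time labels are in doubt. Across 4657 genes that are not among the 48 or the named risers, its change at the label 30 min correlated at 0.60 with the 120 min change of the other strains and at 0.28 with their 30 min change, while its change at the label 120 min correlated at 0.29 with their 120 min change. Whether these labels were exchanged was not tested. The arrays of Cdelta94 also had the widest spread of values, with array SDs of 0.57 to 0.75 against 0.35 to 0.71 in the other strains.

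In the 3 strains that picked them, the median change of the 48 genes grew over the course, with the largest increment over the last and longest interval, from 60 to 120 min. The median log2 change from 0 min was −0.02, 0.15, 0.37 and 0.95 at 10, 30, 60 and 120 min in Cdelta21. It was 0.13, 0.23, 0.51 and 1.18 in Cdelta53. In 2C/S-H/Y it was 0.15, 0.40, 0.56 and 1.25. The median over all genes tested lay between −0.07 and 0.01 at each of these times and strains. The highest mean of the course fell at 120 min for 47 of the 48 genes in Cdelta21, for 48 in Cdelta53 and for 46 in 2C/S-H/Y. A change of at least 2-fold by 120 min was reached by 21 genes in Cdelta21, by 34 in Cdelta53 and by 33 in 2C/S-H/Y. In all 3 strains it was reached by 13 genes. The largest of the 3 strain changes was in 2C/S-H/Y for 25 genes, in Cdelta53 for 17 and in Cdelta21 for 6.

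**Figure D1:**
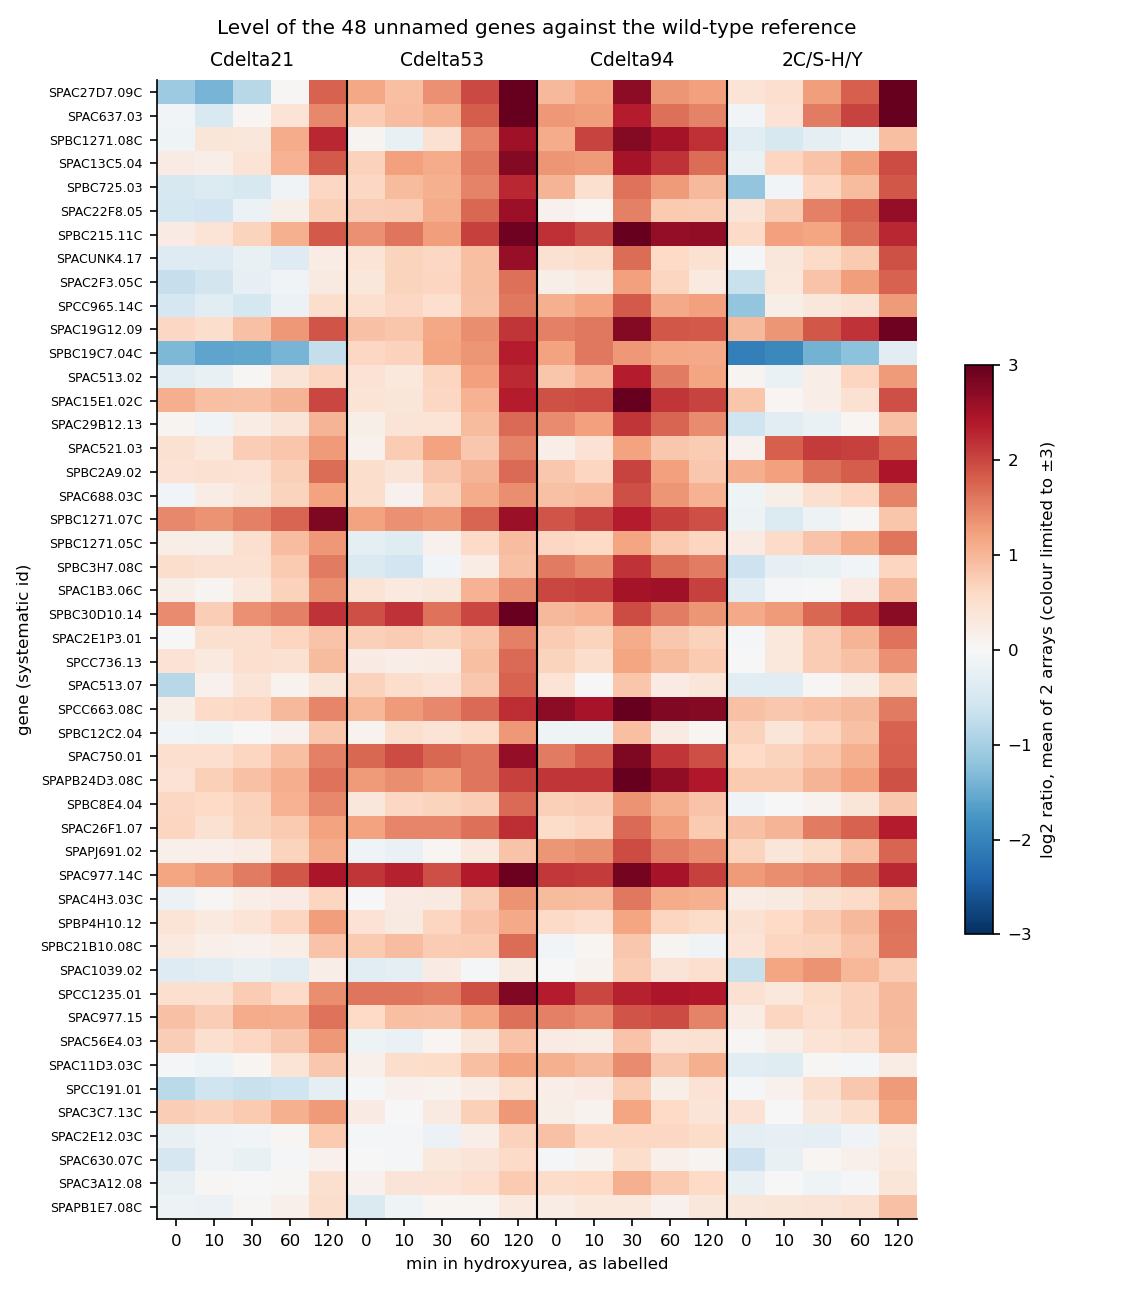
Mean log2 ratio of 2 arrays to the wild-type reference for each of the 48 genes (vertical axis, largest mean rise at the top) in the 20 groups (horizontal axis, minutes in hydroxyurea within each strain); red is above and blue below the reference. The last column of Cdelta21, Cdelta53 and 2C/S-H/Y, which the rule used, is the reddest for most genes, whereas in Cdelta94 the column labelled 30 min is.

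**Figure D2:**
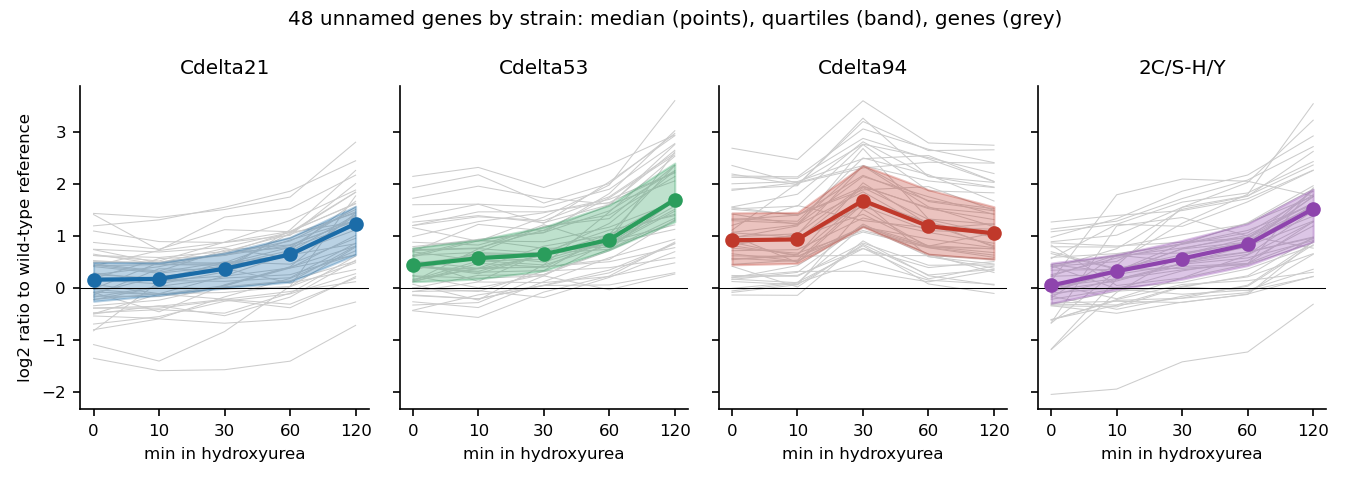
Log2 ratio to the wild-type reference (vertical axis) of the 48 genes by minutes in hydroxyurea (horizontal axis, times evenly spaced): grey lines are genes, points the median and bands the quartiles. The median climbs to 1.24, 1.70 and 1.52 at 120 min in the 3 picking strains, while Cdelta94 starts at 0.92 and peaks at 1.68 in the arrays labelled 30 min.

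SPAC27D7.09C had the largest mean rise of the 48, 2.81 on the log2 scale or 6.99-fold. Its ratios went from −1.01 and −1.16 at 0 min to 1.82 and 1.72 at 120 min in Cdelta21, from 1.13 and 1.19 to 3.58 and 3.62 in Cdelta53, and from 0.38 and 0.45 to 3.61 and 3.47 in 2C/S-H/Y. These arrays chose the gene, so their separation is no support for the rise. The starting ratio was below the wild-type reference in Cdelta21 and above it in both others. SPAC637.03 followed with a mean rise of 2.37. It went from 0.04 and −0.21 to 1.53 and 1.36 in Cdelta21, from 0.73 and 0.79 to 3.03 and 3.02 in Cdelta53, and from −0.16 and −0.02 to 3.34 and 3.11 in 2C/S-H/Y, so its final level in Cdelta21 was under that of both others.

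SPBC1271.08C rose by 2.03 in the mean, with a different order of strains. The values at 0 and 120 min were −0.12 and −0.14 against 2.35 and 2.17 in Cdelta21, and 0.15 and 0.00 against 2.52 and 2.55 in Cdelta53. In 2C/S-H/Y they were −0.28 and −0.40 against 0.87 and 0.92, a rise of 1.23 that was the smallest of the 3. SPAC13C5.04 rose by 1.93 in the mean, reaching 1.95 and 1.72 in Cdelta21, 2.72 and 2.79 in Cdelta53 and 1.73 and 2.20 in 2C/S-H/Y. For SPBC725.03, with a mean rise of 1.92, the 2C/S-H/Y rise of 3.04 began from −1.20 and −1.16, ratios well under those of the next time point (−0.35 and 0.18), and the rises in Cdelta21 and Cdelta53 were 1.09 and 1.63. SPAC22F8.05 (mean rise 1.77) ended at 0.70 and 0.74 in Cdelta21 but at 2.58 and 2.53 in Cdelta53 and 2.50 and 2.75 in 2C/S-H/Y.

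**Figure D3:**
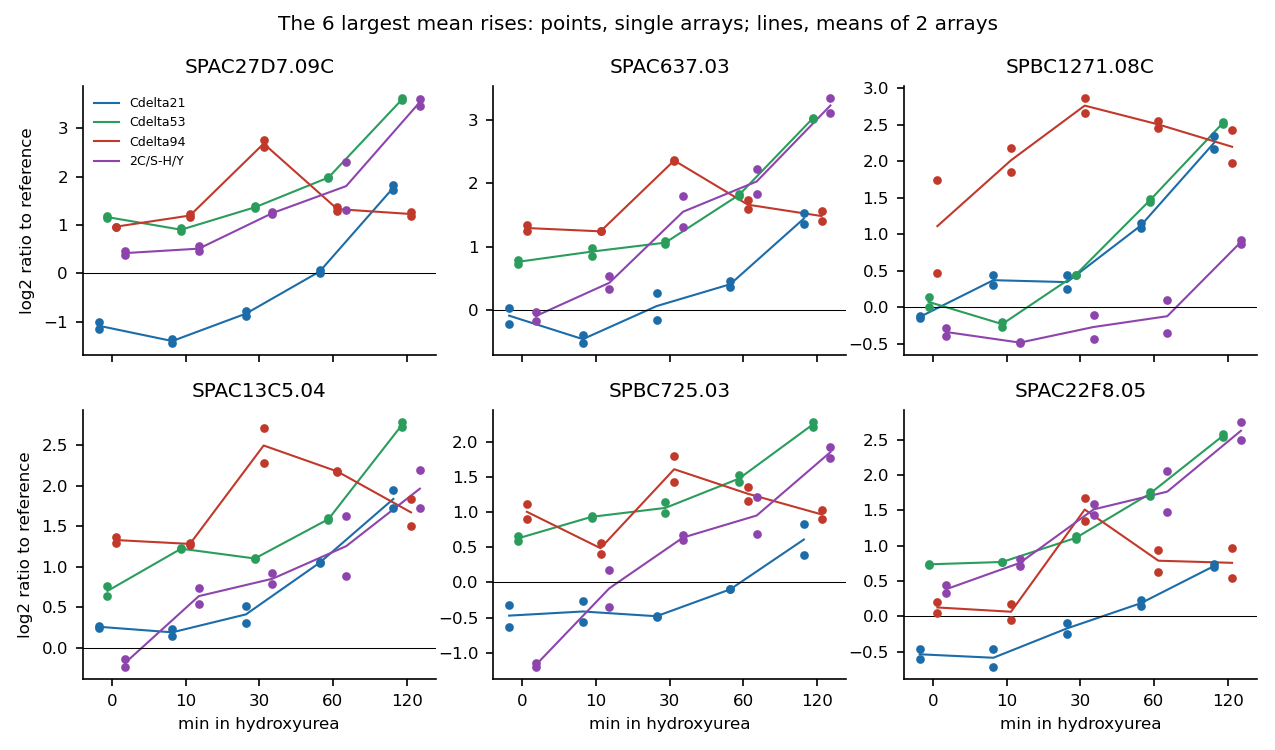
Log2 ratio to the wild-type reference (vertical axes) by minutes in hydroxyurea (horizontal axes, times evenly spaced) for the 6 genes with the largest mean rise; points are single arrays, lines the means of 2 arrays, colours the strains. SPAC27D7.09C runs from −1.01 to 1.82 in array 1 of Cdelta21, below the other strains up to 60 min, and the Cdelta94 course peaks at the label 30 min in all 6 genes.

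The next 6 genes by mean rise were SPBC215.11C (1.62), SPACUNK4.17 (1.59), SPAC2F3.05C (1.57), SPCC965.14C (1.53), SPAC19G12.09 (1.49) and SPBC19C7.04C (1.36). SPBC215.11C was the most even of the 6, with rises of 1.59, 1.57 and 1.70 in Cdelta21, Cdelta53 and 2C/S-H/Y. SPACUNK4.17 was uneven: it rose by 0.60 in Cdelta21, from −0.58 and −0.20 to 0.25 and 0.19, but by 2.20 in Cdelta53, from 0.41 and 0.43 to 2.63 and 2.61. SPCC965.14C and SPAC2F3.05C rose most in 2C/S-H/Y, by 2.45 and 2.43. Both had low 0 min ratios there, −1.27 and −1.07 for SPCC965.14C and −0.76 and −0.59 for SPAC2F3.05C. SPBC19C7.04C rose from under the reference and was still under it at 120 min in 2 strains, at −0.62 and −0.82 in Cdelta21 and −0.32 and −0.30 in 2C/S-H/Y, while in Cdelta53 it went from 0.66 and 0.60 to 2.35 and 2.37.

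At the lower edge of the rule, the smallest of the 3 strain changes was 0.51 for SPAC2E12.03C, 0.52 for SPCC736.13 and 0.53 for SPAC3C7.13C. Just outside were SPAC1B3.20, SPAC4H3.04C and SPAC25B8.09, with smallest changes of 0.49, 0.49 and 0.48. The smallest mean rise among the 48 was that of SPAPB1E7.08C, 0.64 or 1.56-fold.

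Timing was described first by the time at which the mean change of the 3 strains reached 50% of its value at 120 min. This took until the 120 min sample for 30 genes and until 60 min for 15. SPAC630.07C reached it at 30 min, and SPAC521.03 and SPAC1039.02 at 10 min. The median share of the 120 min change was 7.16% at 10 min, 23.2% at 30 min and 46.7% at 60 min. The shares at 60 min rest in part on array 1 of 2C/S-H/Y, a near repeat of array 1 at 30 min. At 60 min the median ratio of the genes was 0.60 in that array and 1.00 in array 2. The 60 min shares may therefore be too low, and the classes without that array were not tested. SPAC15E1.02C was among the latest, at 4.46% by 60 min: in 2C/S-H/Y it went from 0.92 and 0.73 at 0 min down to 0.11 and −0.01 at 10 min, stood at 0.20 and 0.72 at 60 min and reached 1.88 and 1.98 at 120 min.

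The genes of the 10 min class changed most by 10 min in 2C/S-H/Y. SPAC1039.02 in that strain read −0.67 and −0.66 at 0 min, 1.31 and 1.08 at 10 min and 0.99 and 0.54 at 120 min, so the 10 min arrays were above the 120 min arrays. In Cdelta21 and Cdelta53 its change at 10 min was 0.03 and 0.05, and in Cdelta94 0.12. SPAC521.03 read 0.09 and 0.18 at 0 min and 1.88 and 1.70 at 10 min in 2C/S-H/Y, and in Cdelta53 0.10 and 0.14 followed by 0.75 and 0.76, whereas its change in Cdelta21 was −0.14. These early rises in 2C/S-H/Y compare its 0 and 10 min arrays, whose means correlated less than in the other strains. The part of the arrays themselves in these rises was not tested. Early changes also occurred in Cdelta21. There SPAC630.07C changed by 0.38 at 10 min and 0.62 at 120 min. SPAC513.07, of the 120 min class, changed by 0.94 at 10 min and 1.18 at 120 min in Cdelta21. Its 10 min changes in Cdelta53 and 2C/S-H/Y were −0.17 and −0.01.

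The arrays at 10, 30 and 60 min, which the rule did not use, were tested with limma on all 5004 features, and a gene is said to rise or fall at a Benjamini-Hochberg adjusted p under 0.05. All groups shared an estimate of the spread, in which the near-repeat pairs of Cdelta53 counted as replicates. The SEs and p-values given for every strain therefore rest in part on those pairs, and may be too small. From 10 to 60 min, as the mean of Cdelta21, Cdelta53 and 2C/S-H/Y, 39 of the 48 genes rose (81.3%, against 6.49% of all features) and 0 fell (11.5% of all features), with 45 at an unadjusted p under 0.05. All 48 estimates were above 0, and their median was 0.41 against −0.04 over all features. The rule picked genes that rise over these same courses, which favours a rise between 10 and 60 min. The gap to all features is therefore no independent support for the rise. Of the 89 named genes past the same thresholds, 74 rose. With the near-repeat arrays counted once, 27 or 34 genes rose, depending on which of the paired 2C/S-H/Y arrays was kept. The rise was spread over both intervals: 12 genes rose from 10 to 30 min (3.02% of all features rose and 3.12% fell) and 18 from 30 to 60 min (1.28% rose and 1.1% fell), with medians of 0.18 and 0.23. In both intervals 0 of the 48 fell, with 23 and 34 at an unadjusted p under 0.05. These interval counts rest on few arrays, since counting the near repeats once gave 3 genes for the first interval and 2 or 12 for the second. Leaving out array 2 of 2C/S-H/Y at 60 min gave 4 for the second interval, and fitting only the groups compared gave 1. Leaving out single arrays gave 7 to 13 for the first interval, the lowest without array 1 of 2C/S-H/Y at 30 min, and any one array of Cdelta53 at 30 or 60 min brought the second to 9 or 10.

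SPAC27D7.09C rose most from 10 to 60 min in the mean of the 3 strains, by 1.27 ± 0.09 (SE, adjusted p = 4.84e-11 by limma), from −1.45 and −1.36 to 0.07 and 0.00 in Cdelta21, from 0.93 and 0.87 to 1.97 and 1.99 in Cdelta53 and from 0.57 and 0.45 to 1.30 and 2.30 in 2C/S-H/Y. SPAC637.03 rose by 1.12 ± 0.08 (adjusted p = 7.78e-11), SPBC1271.08C by 0.93 ± 0.13 (adjusted p = 5.45e-06) and SPAC22F8.05 by 0.91 ± 0.09 (adjusted p = 1.59e-08). Both intervals counted for SPAC27D7.09C, SPAC637.03 and SPAC22F8.05, which rose by 0.59, 0.59 and 0.50 from 10 to 30 min and by 0.68, 0.52 and 0.41 from 30 to 60 min. SPBC1271.08C and SPAC13C5.04 rose in the later interval, by 0.65 and 0.51, and had estimates of 0.29 (adjusted p = 0.185) and 0.11 in the earlier one. The difference between the intervals was not tested. The 9 genes that did not pass from 10 to 60 min were SPCC965.14C, SPACUNK4.17, SPAC977.15, SPAPB1E7.08C, SPAC2E12.03C, SPAC750.01, SPBC21B10.08C, SPAC3A12.08 and SPAC1039.02, with estimates from 0.03 to 0.24.

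Within single strains, fewer genes passed. From 10 to 60 min, 17 rose in Cdelta21 (2.08% of all features rose and 4.18% fell), 22 in Cdelta53 (5.46% rose), 20 in 2C/S-H/Y (2.38% rose and 0.679% fell) and 18 in Cdelta94 (6.75% rose and 8.81% fell). The medians were 0.37, 0.41, 0.44 and 0.32. SPAC750.01 in Cdelta53 was the single fall (6.65% of all features fell there), by 0.34 ± 0.11 (limma adjusted p = 0.0364), from 1.97 and 1.94 to 1.62 and 1.61. Every one of these counts was sensitive to the arrays. With near repeats counted once, 2 or 4 genes rose in Cdelta53 and the fall did not pass. Leaving out any one of the 4 arrays concerned gave 7 to 10 in Cdelta21 and 6 to 11 in Cdelta94, 14 to 16 in Cdelta53, the lowest without array 1 at 10 min, and 9 in 2C/S-H/Y without array 2 at 60 min. After quantile normalization 0 genes passed in Cdelta94 by limma, with 8 at an unadjusted p under 0.05 and a median of 0.05.

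**Figure D4:**
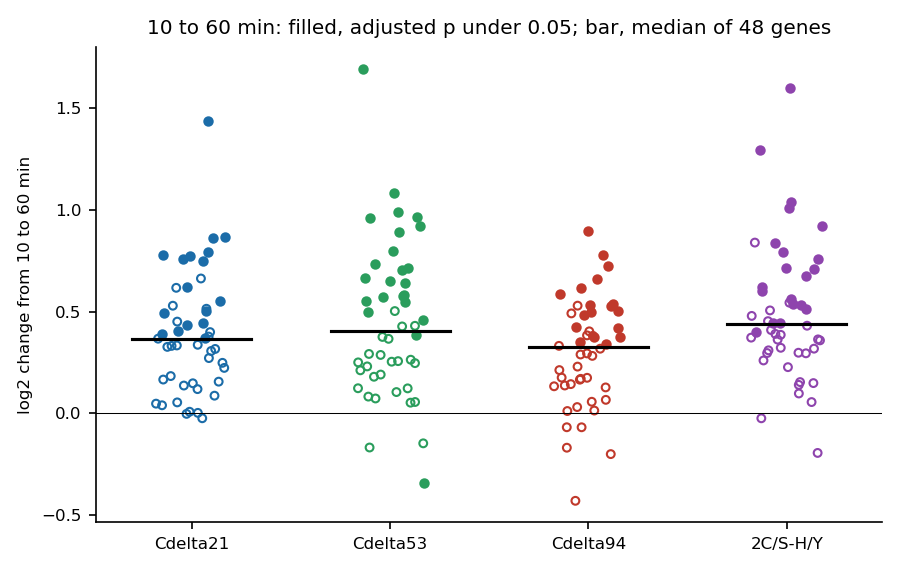
Log2 change from 10 to 60 min (vertical axis) of the 48 genes in each strain (horizontal axis); filled points have a limma adjusted p under 0.05, open points do not, and bars mark the medians of 0.37, 0.41, 0.32 and 0.44. Most points lie above 0 in all 4 strains.

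Cdelta94 was the strain not used for picking. At the label 120 min, the time of the rule, few of the 48 genes passed the test against 0 min: 2 rose (0.639% of all features), 0 fell (0.12%), 11 had an unadjusted p under 0.05, and the median change was 0.13 against 0.05 over all features. Both 120 min arrays were above both 0 min arrays for 21 of the 48. The genes that rose were SPBC1271.08C, by 1.09 ± 0.22 (limma adjusted p = 0.0134), and SPAC22F8.05, by 0.63 ± 0.15 (adjusted p = 0.0441), and 1 gene passed without array 1 at 0 min, and 0 without array 2 at 0 min, after quantile normalization or with near repeats counted once. At the label 30 min, in contrast, 42 genes rose (12.5% of all features), 0 fell (11.7%), 43 had an unadjusted p under 0.05, and the median change was 0.76, which lies between the 60 and 120 min medians of each of the other strains. For 42 of the 48 genes the highest mean of the Cdelta94 course was at this label. After quantile normalization of the arrays 22 genes rose at the label 30 min and 1 fell, with a median of 0.39 against 0.00 over all features.

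At 60 min the change in Cdelta94 correlated best with the change of the other strains at the same time (0.47 across the 4657 genes, against 0.28 at 30 min and 0.44 at 120 min). Of the 48 genes, 11 rose (22.9%, against 2.7% of all features) and 0 fell (2.64%), 24 had an unadjusted p under 0.05, 42 estimates were above 0 and the median was 0.31 against −0.01 over all features. Both 60 min arrays were above both 0 min arrays for 36 of the 48. The count depended on the processing. After quantile normalization 0 genes passed by limma, 10 had an unadjusted p under 0.05 and the median was 0.06. With near repeats counted once, 6 or 7 passed. Leaving out 1 of the 4 arrays gave 4 to 9, the lowest without array 1 at 0 min or array 2 at 60 min. At 10 min 0 genes passed (0.04% of all features rose and 0.04% fell), with 6 at an unadjusted p under 0.05 and a median of 0.01.

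SPBC1271.08C gave the largest Cdelta94 change at 60 min. Its arrays read 1.75 and 0.48 at 0 min against 2.46 and 2.55 at 60 min, a rise of 1.39 ± 0.22 (limma adjusted p = 0.000382). The size rests on the low array 2 at 0 min, since the 10 min arrays read 1.85 and 2.18 and the change without that array was 0.76. SPAC13C5.04 went from 1.36 and 1.30 to 2.18 and 2.18, a rise of 0.85 ± 0.17 (adjusted p = 0.00251). SPAC26F1.07 went from 0.50 and 0.59 to 1.20 and 1.33, a rise of 0.72 ± 0.15 (adjusted p = 0.00373). In both genes the pairs were far apart compared with the gap within each pair. SPAC513.02, SPAC22F8.05 and SPAC521.03 rose by 0.74 ± 0.22, 0.66 ± 0.15 and 0.62 ± 0.15, with adjusted p = 0.0468, 0.0103 and 0.0126. After quantile normalization these 6 genes had changes of 0.38 to 0.84 and none passed.

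At the other end, 6 genes had estimates below 0 at 60 min in Cdelta94, none of which passed. SPAC2E12.03C went from 0.92 and 0.84 to 0.71 and 0.53, a difference of −0.26 ± 0.13 (limma adjusted p = 0.268). SPAC11D3.03C read 1.18 and 0.43 at 60 min against 1.05 in array 2 at 0 min, and its estimate of −0.26 rests on the lower of its 60 min arrays. SPAC513.07, SPAPB1E7.08C, SPBC19C7.04C and SPCC191.01 had differences of −0.17, −0.10, −0.05 and −0.03. SPBC19C7.04C was near 1.2 at 0 min (1.24 and 1.17) and 60 min (1.19 and 1.12), but read 1.74 and 1.43 at 10 min. Its 60 min mean in Cdelta53 was 0.71 above that at 0 min, a change that shares the 0 min arrays of the rule.

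**Figure D5:**
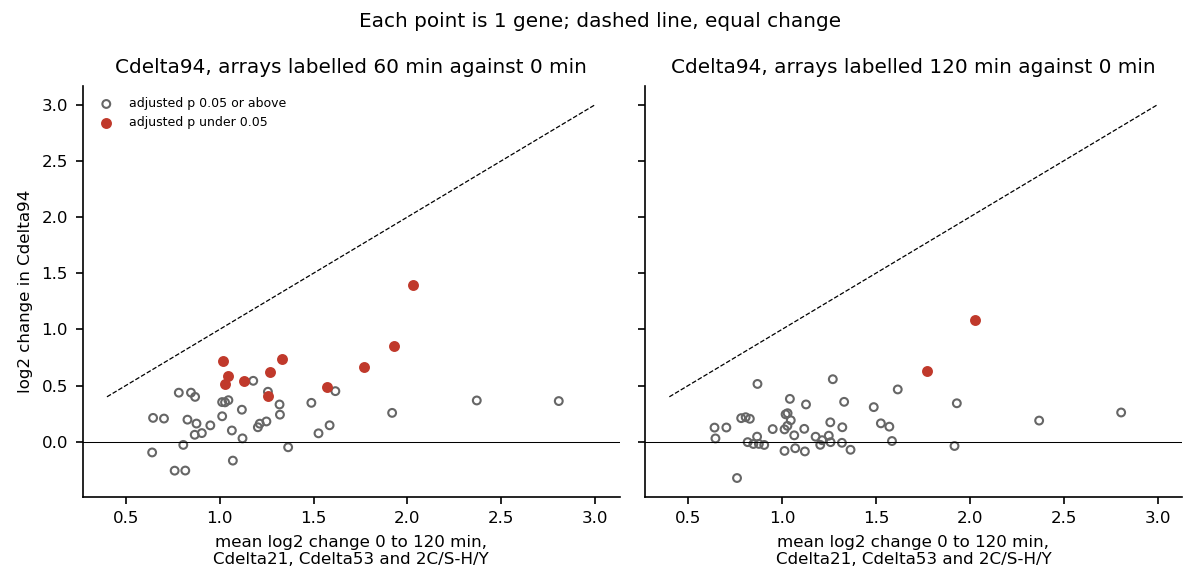
Log2 change in Cdelta94 (vertical axes) at the labels 60 min (left) and 120 min (right) against the mean log2 change from 0 to 120 min in the 3 picking strains (horizontal axes); each point is 1 of the 48 genes, filled where the limma adjusted p is under 0.05, and the dashed line marks equal change. All points lie below the line in both panels, with 11 filled on the left and 2 on the right. The rule favours large values on the horizontal axes, and the left panel sets 60 min against 120 min, so points below the line are favoured. The label 30 min is not shown. Its median change in Cdelta94 was 0.76 against 1.12 on the horizontal axis, and some genes, SPAC513.02 among them, changed more in Cdelta94.

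The 48 genes stood high in Cdelta94 before treatment. At 0 min the median ratio to the wild-type reference was 0.92 in Cdelta94, against 0.05 in 2C/S-H/Y, 0.16 in Cdelta21 and 0.43 in Cdelta53, while the median over all genes tested was between −0.04 and 0.01. The named genes past the same thresholds were also highest in Cdelta94 at 0 min. Their median was 0.60 there, against 0.13 in 2C/S-H/Y, 0.19 in Cdelta21 and 0.34 in Cdelta53. In Cdelta94 at 0 min, 39 of the 48 genes were above the reference by limma (31.6% of all features were), and its mean at that time was above that of every other strain for 32 of them. The 0 min arrays of the other 3 strains were used by the rule, which favours genes that are low there, so the comparison between strains was tested at 10 and 60 min. This does not free it from the rule, since genes low at 0 min tended to stay low. Over all features, the 2C/S-H/Y means at 0 and 10 min correlated at 0.59, those of Cdelta53 at 0.90 and those of Cdelta21 at 0.83. A higher level in Cdelta94 is thus still favoured by the picking. At 10 and 60 min, 32 of the 48 genes were higher in Cdelta94 than in the mean of the other strains (66.7%, against 34% of all features) and 6 were lower (12.5%, against 41.2%), with a median difference of 0.50 against −0.06. After quantile normalization 25 were higher and 12 lower, with a median of 0.26 against −0.04 over all features. The shares of all features called under that normalization are not given here. Of the 89 named genes past the same thresholds, 40 were higher and 26 lower, with a median of 0.11.

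In the later times of Cdelta94 the 48 genes stayed above the reference, with 41 above it at 10 min (30.4% of all features), 48 at the label 30 min (29.7%), 44 at 60 min (34.9%) and 45 at the label 120 min (35.9%), and 0 below it at any time. Fewer were above it in Cdelta21, 21 at 10 min (21.6%) and 31 at 60 min (19.9%). In Cdelta53 the counts were 33 (33.9%) and 43 (29.2%), and in 2C/S-H/Y 27 (26.8%) and 38 (30%). The reference stands as 1 control in these counts, which leave out its own spread.

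SPBC19C7.04C had the smallest p for a level that differed among the strains. At 10 min it read 1.74 and 1.43 in Cdelta94 and 0.67 and 0.71 in Cdelta53, but −1.74 and −1.43 in Cdelta21 and −1.69 and −2.19 in 2C/S-H/Y. Its Cdelta94 level at 10 and 60 min was 2.06 ± 0.10 above the mean of the others (limma adjusted p = 1.88e-16). SPAC1B3.06C was 1.91 ± 0.10 higher in Cdelta94 (adjusted p = 9.91e-16), with 1.86 and 2.23 at 10 min against values from −0.20 to 0.33 in the other strains. Only 1 of its probes was measured in Cdelta21 and Cdelta94. SPAC15E1.02C, at 1.92 and 2.01 in Cdelta94 at 10 min, was 1.42 ± 0.07 higher (adjusted p = 5.54e-16). SPBC1271.07C was high in 3 strains and low in 2C/S-H/Y, with 1.22 and 1.49 in Cdelta21, 1.37 and 1.37 in Cdelta53 and 2.18 and 1.87 in Cdelta94 at 10 min, against −0.35 and −0.46. SPAC27D7.09C was low in Cdelta21, as its 10 min arrays there (−1.45 and −1.36) lay more than 1 log2 unit below those of every other strain.

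The genes lower in Cdelta94 were SPBC21B10.08C, SPAC521.03, SPBC30D10.14, SPAC22F8.05, SPBC12C2.04 and SPAC26F1.07, by 0.23 to 0.52. SPBC21B10.08C, the largest of these differences at −0.52 ± 0.11 (limma adjusted p = 7.36e-05), read 0.18 and −0.05 at 10 min in Cdelta94 and 0.92 and 0.94 in Cdelta53. A level that differed among the 4 strains was called for 47 of the 48 genes, close to the 92.5% of all features, so differing at all is no mark of these genes. Between pairs of strains at 10 and 60 min, 36 of the 48 were lower in Cdelta21 than in Cdelta94 (30.2% of all features) and 2 higher (36.9%). Against Cdelta53, 29 were lower in Cdelta21 (28%) and 6 higher (24.5%). Between Cdelta94 and Cdelta53, 27 were higher in Cdelta94 (25.9%) and 8 in Cdelta53 (33.3%). Between Cdelta21 and 2C/S-H/Y, 10 genes were higher in Cdelta21 (23.3%) and 21 lower (29%). Set against 2C/S-H/Y, 27 genes were higher in Cdelta94 (36.4%) and 11 lower (44.3%), and 24 were higher in Cdelta53 (35.2%) and 10 lower (36.3%).

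The change from 10 to 60 min differed among the 4 strains for 7 of the 48 genes (14.6%, against 3.68% of all features), with 17 at an unadjusted p under 0.05. With near repeats counted once, 1 gene or 0 passed, with 10 at an unadjusted p under 0.05 in the latter case, and leaving out 1 array of Cdelta53 gave 3 or 4. Without array 1 of 2C/S-H/Y at 60 min, which is a near repeat of a 30 min array, 14 passed. SPAC27D7.09C (limma F test, adjusted p = 0.00332) rose by 1.44, 1.08 and 1.29 in Cdelta21, Cdelta53 and 2C/S-H/Y, and its estimate in Cdelta94 was 0.13, from 1.16 and 1.23 to 1.28 and 1.37. That small change is not a lack of response in Cdelta94, where the gene rose by 1.72 against 0 min at the doubted label 30 min. SPAC637.03 (adjusted p = 0.00816) rose by 1.60 in 2C/S-H/Y and by 0.42 in Cdelta94. The change in Cdelta94 minus that in 2C/S-H/Y was −1.18 ± 0.20 (adjusted p = 0.00344). At the label 30 min SPAC637.03 too rose in Cdelta94, by 1.06 against 0 min. SPBC19C7.04C (adjusted p = 0.00963) had changes of 0.71 in 2C/S-H/Y and 0.65 in Cdelta53 that passed, and of 0.18 in Cdelta21 and −0.43 in Cdelta94, which did not.

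In SPAC750.01, SPBC30D10.14 and SPBC1271.08C the strain apart was Cdelta53. SPAC750.01 (adjusted p = 0.00849 in the limma F test) fell there and rose by 0.40, 0.34 and 0.40 in Cdelta21, Cdelta94 and 2C/S-H/Y. SPBC30D10.14 (adjusted p = 0.0139) went from 2.21 and 2.14 to 2.02 in array 1 of Cdelta53, with an overall estimate of −0.17 that did not pass, and rose by 0.79, 0.48 and 0.79 in Cdelta21, Cdelta94 and 2C/S-H/Y. SPBC1271.08C (adjusted p = 0.0341) rose by 1.69 in Cdelta53, from −0.27 and −0.20 to 1.48 and 1.45, and had an estimate of 0.36 in 2C/S-H/Y. SPAC2E1P3.01 (adjusted p = 0.0376) rose by 0.71 in 2C/S-H/Y, with estimates of 0.08 to 0.15 in the other strains. Between pairs of strains the counts were small: the change was larger in Cdelta21 than in Cdelta53 for 2 genes (0.46% of all features) and smaller for 0 (1.04%), and larger in Cdelta53 than in Cdelta94 for 4 (1.28%) and smaller for 1 (1.42%). It was smaller in Cdelta94 than in 2C/S-H/Y for 3 (0.819%) and larger for 0 (0.799%). Cdelta53 against 2C/S-H/Y gave 1 larger (0.739%) and 4 smaller (1.22%), Cdelta21 against Cdelta94 gave 1 larger (0.22%) and 0 smaller (0.36%), and Cdelta21 against 2C/S-H/Y gave 0 in either direction (0.12% and 0.0999%). Across the 48 genes, the 10 to 60 min changes of any 2 strains correlated at 0.17 to 0.53 (Pearson, n = 48 genes), the lowest between Cdelta53 and Cdelta94. All strains share the reference RNA.

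The 48 genes were set beside named genes under the same fits. The 89 named genes past the same thresholds had medians of 0.84, 0.99 and 1.15 at 120 min in Cdelta21, Cdelta53 and 2C/S-H/Y, values that the rule also chose. From 10 to 60 min in the mean of the 3 strains 74 of the 89 rose, with a median of 0.45, and 33 rose at 60 min in Cdelta94, with a median of 0.41. Of 20 genes of the core environmental stress response (among them gpd1, for glycerol synthesis, tps1, for trehalose synthesis, ctt1, the catalase, and the heat shock genes hsp9, hsp16 and hsp104), 12 rose from 10 to 60 min in the 3-strain mean and 8 at 60 min in Cdelta94, and 0 fell in either. Of 17 measured MBF targets (such as cdc18 and cdt1, which license replication origins, and cdc22 and suc22, the ribonucleotide reductase subunits), 13 rose from 10 to 60 min and 1 at 60 min in Cdelta94. Over all features 6.49% and 2.7% rose in these tests. At the label 30 min in Cdelta94, 74 of the 89 named genes, 16 of the 20 stress genes and 7 of the 17 MBF targets rose, and 1 MBF target fell. Of the 48 genes 42 rose there, and of all features 12.5%. The level in Cdelta94 at 10 and 60 min was higher than in the other strains for 5 and lower for 7 of the stress genes, and higher for 2 and lower for 11 of the MBF targets, with medians of −0.05 and −0.45. Of all features 34% were higher and 41.2% lower.

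By their ids, 30 of the 48 genes lie on chromosome I (62.5%, against 49.1% of all unnamed genes), 13 on chromosome II and 5 on chromosome III. All 48 are protein-coding in the RefSeq gene table. In gene order, SPAC977.14C and SPAC977.15 are neighbours, as are SPAC513.07 and SPAC2E1P3.01, and SPBC1271.08C and SPBC1271.07C, with SPBC1271.05C 1 gene further on. SPAC29B12.13 and SPAC1039.02 have 2 genes between them. Of these neighbours, SPBC1271.08C and SPBC1271.05C rose by 1.69 and 0.96 from 10 to 60 min in Cdelta53, and SPBC1271.07C by 0.39, from a level at 10 min that was already at 1.37. In the same order they rose by 0.75, 0.76 and 0.39 in Cdelta21. In 2C/S-H/Y the changes were 0.36, which did not pass, 0.53 and 0.44, which did. None of them passed in Cdelta94, with estimates of 0.49, 0.17 and 0.03. The 86 measured neighbouring genes that are not among the 48 had a median change of 0.00 by 120 min, and 2 of them (2.33%), dhd1 and tgp1, passed the thresholds, against 2.84% of all genes. Of the 48, 8 lie among the 50 protein-coding genes nearest a chromosome end, as do 98 of the 754 unnamed genes.

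Both probes passed the thresholds on their own for 36 of the 48 genes. The correlation between a gene's probes over the arrays had a median of 0.91 and was above 0.7 for 46 genes. The lowest was 0.52 for SPAC11D3.03C, and 2 genes, SPAC1B3.06C and SPAPJ691.02, had 1 probe with no value in at least 1 strain.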

How the data were processed

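The values are the authors' deposited log2 ratios, 1 per probe and array. Base 2 was settled from the values: 100% of those below 0 were whole thousandths (within 0.02 of that step) once raised as powers of 2, against 3.48% for base 10. Strain over reference (Cy5 over Cy3) was taken as the direction, per the labels' dyes. Which scanner, background correction or normalization was used is not given in the sources used here. Array medians ran from −0.12 to 0.06, 1.17% of values were missing, and the number of arrays, 2 per group, limits the precision.

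Of 9858 probes, 9632 had 1 symbol and were averaged per gene (2 probes each), 44 had several and 182 none. Of 5042 features, 5004 with values on at least 80% of arrays and in every group were tested, all 48 members among them. RefSeq (ASM294v3) matched 99.5% of the genes and served for names and gene order.

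Group means were fitted with limma 3.58.1 (R 4.3.3) on all 40 arrays, without a block, and adjusted by Benjamini-Hochberg over the 5004 features. On simulated data for Cdelta94 at 60 against 0 min (5004 features) the fit recovered 59% of changes of 0.5 and 96% of changes of 1, with 7 false among 162 calls. Pairing by replicate number was not settled: within strains, differences between replicates 1 and 2 correlated at −0.24 to 0.65 between time points, above 0.1 in 21 of 40 pairs. The highest value was in 2C/S-H/Y between 30 and 60 min, where array 1 was a near repeat, so it says little about pairing. The next was 0.60, in Cdelta94 between the labels 30 and 120 min. As not every pair was above 0.1, the block was kept as an alternative. Members, lists and tests were chosen with earlier results of these data known. The rule for genes given in full was the 12 largest mean rises, the 6 largest and 6 lowest changes in Cdelta94 at 60 min, the 5 strongest strain by time and 5 strongest level differences, and 3 genes on either side of the threshold; others were named after their values were seen. Alternatives were quantile normalization, only the groups compared, a replicate block, near repeats counted once, single probes, no filter, each array left out and other thresholds. No sequence or promoter was analysed here.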

Additional observations from a re-analysis of the deposited data

Results flagged for a closer look

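The strains differed in the change from 10 to 60 min for 7 of the 48 genes, by the limma F test on the difference itself. The adjusted p was 0.00332 for SPAC27D7.09C, whose change was 1.31 ± 0.23 smaller in Cdelta94 than in Cdelta21, and 0.00816 for SPAC637.03, whose estimate was lowest in Cdelta94 and highest in 2C/S-H/Y. Both genes rose in Cdelta94 at the label 30 min, whose time is in doubt, by 1.72 and 1.06 against 0 min. SPAC750.01 (adjusted p = 0.00849) and SPBC30D10.14 (adjusted p = 0.0139) differed through Cdelta53, where their estimates were −0.34 and −0.17 and those of the other strains were above 0. For SPBC19C7.04C (adjusted p = 0.00963) the estimates ran from −0.43 in Cdelta94 to 0.71 in 2C/S-H/Y. The adjusted p was 0.0341 for SPBC1271.08C and 0.0376 for SPAC2E1P3.01. Averaging the near-repeat arrays brought the 7 down to 1 or 0.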

How the results depend on the processing

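Counts are of the 48 genes. Estimates changed sign under quantile normalization: those above 0 went from 42 to 32 at 60 against 0 min in Cdelta94, and from 43 to 26 from 10 to 60 min there. Of 1584 recomputed values for single named genes, 1454 stayed on their side of the threshold, 99 lost it and 31 gained it, and 0 called values turned sign. The calls that held within 1.5 times under each alternative were the 39 rising from 10 to 60 min in the 3-strain mean, the 47 with unequal strain levels and the 32 higher in Cdelta94 (25 to 32).

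Quantile normalization, which pulls in the wider Cdelta94 arrays, gave 0 rising at 60 min and 0 at the label 120 min in Cdelta94 by limma (10 and 5 at an unadjusted p under 0.05), 22 rising and 1 falling at the label 30 min, 19 rising and 1 falling from 10 to 30 min, 0 rising from 10 to 60 min in Cdelta94 (8 unadjusted), 2 falling in Cdelta53, 17 with unequal changes, 12 lower in Cdelta94, and 27 genes past the rule instead of 48. The rule gave 66 genes at a threshold of 0.4, 35 at 0.6 and 36 with both probes required.

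With only the groups compared in the fit, 0 rose at the label 120 min in Cdelta94 (5 unadjusted), 1 from 30 to 60 min, and from 10 to 60 min 8 rose in Cdelta21, 41 in Cdelta53 (2 fell), 6 in Cdelta94, then 1 in 2C/S-H/Y.

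With near repeats counted once, keeping the 60 or the 30 min array of 2C/S-H/Y, 6 or 7 rose at 60 min and 0 or 0 at the label 120 min in Cdelta94 (7 and 9 unadjusted), 3 or 3 from 10 to 30 min and 2 or 12 from 30 to 60 min. From 10 to 60 min 8 or 10 rose in Cdelta21, 2 or 4 in Cdelta53 (0 fell), 7 or 10 in Cdelta94 and 12 or 22 in 2C/S-H/Y, and 0 or 1 had unequal changes.

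Probe 1 and probe 2 alone gave 8 and 5 rising at 60 min and 0 and 0 at the label 120 min in Cdelta94 (6 and 8 unadjusted), 8 and 6 from 10 to 30 min, 5 and 7 from 30 to 60 min, and from 10 to 60 min 8 and 7 rising in Cdelta21, 11 and 6 rising in Cdelta94, 11 and 11 rising in 2C/S-H/Y, with 0 and 1 falling in Cdelta53 and 3 and 3 with unequal changes.

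A replicate block in the fit gave 1 fall from 10 to 60 min in Cdelta94, where the fit without it gave 0. All other counts moved by less than 1.5 times, such as 15 rising at 60 min in Cdelta94 and 10 with unequal changes. Leaving out the arrays labelled 30 and 120 min of Cdelta94, chosen after seeing the data, gave 14 at 60 min and 1 fall from 10 to 60 min in Cdelta94.

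With each array left out in turn, Cdelta94 gave 4 to 9 rising at 60 min, 0 to 1 at 10 min, 35 to 38 at the label 30 min (0 to 1 falling) and 0 to 3 at the label 120 min. The 3-strain mean gave 7 to 13 from 10 to 30 min, 4 to 27 from 30 to 60 min (0 to 1 falling) and 35 to 39 from 10 to 60 min. From 10 to 60 min, 7 to 10 rose in Cdelta21, 14 to 16 in Cdelta53 (0 to 0 falling), 6 to 11 in Cdelta94 (0 to 1 falling) and 9 to 29 in 2C/S-H/Y (0 to 1 falling). Unequal changes numbered 3 to 14, genes lower in Cdelta94 5 to 8, and genes past the rule 45 to 55. Signal over background was not used here.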
